A study of Mus musculus with 3 samples.

Results

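The mouse mitochondrial genome holds 13 protein-coding genes, and 9 of them are described here: mt-Nd1, mt-Nd2, mt-Nd3, mt-Nd4, mt-Co1, mt-Co2, mt-Co3, mt-Atp6 and mt-Cytb. They were chosen by name from the 32285 genes of the count matrices, and each was present in every matrix. The series holds 3 libraries of single nuclei from frozen mouse hippocampus, each pooled from both hippocampi of 4 mice: doxorubicin plus ACY-1083, doxorubicin alone, and control with no treatment. Doxorubicin is a chemotherapy drug that poisons topoisomerase II, and ACY-1083 inhibits the deacetylase HDAC6. Dose, strain, sex and age are not in the labels, which also name no genetic change. Nuclei were released with the detergent Triton X-100 and sequenced with the 10x 3′ version 3 chemistry, which counts unique molecular identifiers (UMIs), each standing for 1 captured RNA molecule. With 1 library per group there is no replicate, so no p-value is given, and each difference describes these libraries. Intervals are exact 95% intervals and cover counting error only, and member UMIs varied more from nucleus to nucleus than counting error alone.

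Mitochondrial DNA is transcribed inside the organelle from a few promoters into long RNAs of both strands, which are cut at the transfer RNAs that punctuate the genes. The mature messenger RNAs receive short poly(A) tails and are translated by mitochondrial ribosomes. Every protein they encode is a core part of oxidative phosphorylation: complex I, complex III, complex IV or the ATP synthase, each of which also needs subunits encoded in the nucleus. These RNAs are made and kept in mitochondria, outside the nucleus, and pieces of mitochondrial DNA also sit in the nuclear genome.

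After removal of doublets, 11848 nuclei with 59521151 UMIs remained in the doxorubicin plus ACY-1083 library, 11648 with 20265481 UMIs in the doxorubicin library and 10457 with 18159076 UMIs in control. The members together had 8062, 10110 and 7180 UMIs in these 3 libraries, which was 0.0135%, 0.0499% and 0.0395% of all UMIs. No source used here says whether intron reads were counted. For doxorubicin plus ACY-1083 against doxorubicin, genes with over 100 kb of intron had a median log2 ratio of CPM (a gene's UMIs scaled to a common library total) of 1.42 (2292 genes) and genes without introns one of -1.49 (619 genes). Doxorubicin against control gave -0.07 and -0.05 for the same kinds of genes. Mitochondrial genes have no introns, so the CPM of the doxorubicin plus ACY-1083 library cannot be set directly beside that of the others, and UMIs per nucleus are given with it. Few barcodes occurred in 2 libraries. The doxorubicin library shared 42 with control and 46 with the doxorubicin plus ACY-1083 library, which shared 29 with control.

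The 3′ ends of 5 members are shown because the 10x 3′ assay primes on poly(A), and in mitochondria that tail also finishes the stop codon of some genes. Each line gives the last 30 bases of the gene in GENCODE vM21 (GRCm38, plus strand), with the bases of the stop codon in capitals.
mt-Co3: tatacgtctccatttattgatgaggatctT
mt-Nd4: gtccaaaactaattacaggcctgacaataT
mt-Cytb: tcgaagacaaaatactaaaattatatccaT
mt-Co1: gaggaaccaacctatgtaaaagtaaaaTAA
mt-Nd3: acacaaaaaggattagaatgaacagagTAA
These are chrM:9361-9390 for mt-Co3, chrM:11515-11544 for mt-Nd4, chrM:15259-15288 for mt-Cytb, chrM:6843-6872 for mt-Co1 and chrM:9777-9806 for mt-Nd3. In mt-Co3, mt-Nd4 and mt-Cytb the annotated gene ends on a lone T after its last whole codon, while the other members end on a complete TAA or TAG. The longest run of adenines inside a member was 8 bases, in mt-Nd2.

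The members lie in this order on the plus strand of chromosome M: mt-Nd1 (2751 to 3707), mt-Nd2 (3914 to 4951), mt-Co1 (5328 to 6872), mt-Co2 (7013 to 7696), mt-Atp6 (7927 to 8607), mt-Co3 (8607 to 9390), mt-Nd3 (9459 to 9806), mt-Nd4 (10167 to 11544) and mt-Cytb (14145 to 15288). Each is a single protein-coding exon. mt-Atp6 shares 43 bases with mt-Atp8 and 1 base with mt-Co3, and mt-Nd4 shares 7 bases with mt-Nd4l, so UMIs between these partners are uncertain. Copies of mitochondrial DNA in the nuclear genome are a further limit. Every stretch of 60 bases in mt-Co2 occurs unchanged in annotated pseudogenes on chromosomes 1 and 2 (Gm28661 and Gm13341), and 99.9% of those in mt-Co3 occur in Gm28437 on chromosome 1. The share was 99.5% for mt-Atp6 (Gm10925), 97.9% for mt-Nd3 (Gm28438), 61.9% for mt-Nd4 (Gm28439), 46.5% for mt-Co1 (Gm29216 and Gm13340), 7.15% for mt-Nd2 (Gm13339), and 0 for mt-Nd1 and mt-Cytb. None of these pseudogenes is a row of the matrices, so RNA from them could only be counted under the mitochondrial gene. mt-Nd1 and mt-Cytb have no such copy, so this limit was not found for them.

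The cytochrome c oxidase members, the catalytic core of complex IV, gave the most UMIs. mt-Co3 had 2167 UMIs (183 per 1000 nuclei, 36.4 CPM) in doxorubicin plus ACY-1083, 2568 (220.5 per 1000, 127 CPM) in doxorubicin and 1842 (176 per 1000, 101 CPM) in control. mt-Co1, which holds the oxygen-reducing site, had 1743 UMIs (147 per 1000 nuclei), 2227 (191) and 1508 (144) in the same libraries. mt-Co2, the subunit that accepts electrons from cytochrome c, had 1013 UMIs (85.5 per 1000 nuclei) in doxorubicin plus ACY-1083, 1256 (108) in doxorubicin and 882 (84.3) in control. In each of these genes the doxorubicin library was the highest per nucleus and the other libraries lay close together.

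mt-Atp6, the proton channel subunit of the ATP synthase, followed with 864 UMIs (72.9 per 1000 nuclei) in doxorubicin plus ACY-1083, 1181 (101) in doxorubicin and 797 (76.2) in control. mt-Cytb, the only mitochondrially encoded part of complex III, had 572 UMIs (48.3 per 1000 nuclei), 756 (64.9) and 515 (49.2) in these libraries. The remaining members belong to the membrane arm of complex I. mt-Nd2 had 639 UMIs (53.9 per 1000 nuclei) in doxorubicin plus ACY-1083, 798 (68.5) in doxorubicin and 647 (61.9) in control. mt-Nd4 had 494 UMIs (41.7 per 1000 nuclei), 650 (55.8) and 494 (47.2), and mt-Nd1 482 UMIs (40.7 per 1000 nuclei), 571 (49.0) and 439 (42.0), in the same order of libraries. mt-Nd3, the shortest member, had 88 UMIs (7.43 per 1000 nuclei) in doxorubicin plus ACY-1083, 103 (8.84) in doxorubicin and 56 (5.36) in control. All 9 members were highest per nucleus in the doxorubicin library.

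**Figure D1:**
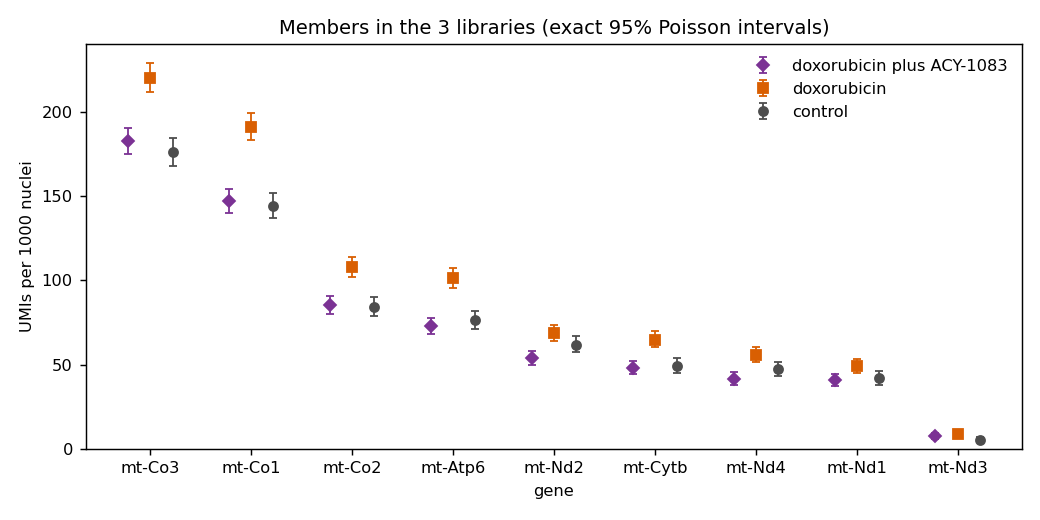
UMIs per 1000 nuclei (vertical axis) of each member (horizontal axis) in the doxorubicin plus ACY-1083, doxorubicin and control libraries, with exact 95% Poisson intervals. mt-Co3 ranges from 176 to 220.5 and mt-Nd3 from 5.36 to 8.84, and for every gene the doxorubicin library is the highest.

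The order of the members by UMIs was the same in each library: mt-Co3, mt-Co1, mt-Co2, mt-Atp6, mt-Nd2, mt-Cytb, mt-Nd4, mt-Nd1 and mt-Nd3. Per kilobase of gene, mt-Co3 had 2764 UMIs in doxorubicin plus ACY-1083, 3276 in doxorubicin and 2349 in control, mt-Nd2 had 616, 769 and 623, and mt-Nd3 had 253, 296 and 161. Per kilobase, mt-Co2 and mt-Atp6 came before mt-Co1 in each library, and mt-Nd3 stayed last. A 3′ assay counts ends of molecules, so the value per kilobase is given for comparison between genes and not as a better level. The shares of the members among their sum differed little between libraries. mt-Co3 was 26.9% of the sum in doxorubicin plus ACY-1083 (25.9 to 27.9), 25.4% in doxorubicin (24.6 to 26.3) and 25.7% in control (24.6 to 26.7). mt-Nd2 was 7.93% (7.35 to 8.54), 7.89% (7.37 to 8.44) and 9.01% (8.36 to 9.70) in these libraries, and its doxorubicin and control intervals barely overlapped.

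The other 4 mitochondrially encoded genes had fewer UMIs than every member except mt-Nd3. mt-Nd3 had 88 UMIs in doxorubicin plus ACY-1083, 103 in doxorubicin and 56 in control. It was below mt-Nd5 in each library and below mt-Nd4l in control. mt-Nd5, the largest subunit gene, had 211 UMIs in doxorubicin plus ACY-1083, 268 in doxorubicin and 184 in control, and mt-Nd4l had 64, 92 and 60. mt-Atp8 had 37, 58 and 36 UMIs, and mt-Nd6, the only mitochondrial protein-coding gene on the opposite strand, had 44, 36 and 27. The members held 95.7% to 95.9% of all mitochondrial UMIs over the libraries.

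In the doxorubicin library the members were higher than in control. Their sum was 499 CPM (489 to 509) in doxorubicin and 395 CPM (386 to 405) in control, a ratio of 1.26 (1.22 to 1.30). Per nucleus the sum was 0.868 UMIs (0.851 to 0.885) in doxorubicin and 0.687 (0.671 to 0.703) in control, also a ratio of 1.26. All 9 members had a CPM ratio over 1, against 38.6% of the 13803 genes with at least 100 UMIs in both libraries together. 5 of the 9 were at least 25% higher, as were 5.01% of all genes, and no member was at least 20% lower, against 4.54% of genes. Among the 605 genes without introns 5.45% were at least 25% higher. The median log2 CPM ratio was 0.35 for the members and -0.05 for all genes tested.

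The size of the ratio varied among members. mt-Nd3 had the highest, 1.65 (1.18 to 2.32), from the fewest UMIs. mt-Atp6 was at 1.33 (1.21 to 1.45), mt-Co1 at 1.32 (1.24 to 1.41), mt-Cytb at 1.32 (1.17 to 1.47), mt-Co2 at 1.28 (1.17 to 1.39) and mt-Co3 at 1.249 (1.18 to 1.33), just short of 25%. The other complex I members were nearest to 1: mt-Nd4 at 1.18 (1.05 to 1.33), mt-Nd1 at 1.17 (1.03 to 1.32) and mt-Nd2 at 1.11, whose interval (0.995 to 1.23) included 1. Summed by complex, the ratio was 1.16 (1.09 to 1.24) for the 4 complex I members, 1.28 (1.23 to 1.33) for the 3 complex IV members, 1.32 for mt-Cytb and 1.33 for mt-Atp6. mt-Nd1 and mt-Cytb, the members without a nuclear copy in the annotation, both had intervals above 1. Among the other mitochondrially encoded genes the ratio was 1.31 (1.08 to 1.58) for mt-Nd5, 1.37 (0.982 to 1.94) for mt-Nd4l, 1.44 (0.936 to 2.25) for mt-Atp8 and 1.19 (0.705 to 2.05) for mt-Nd6.

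**Figure D2:**
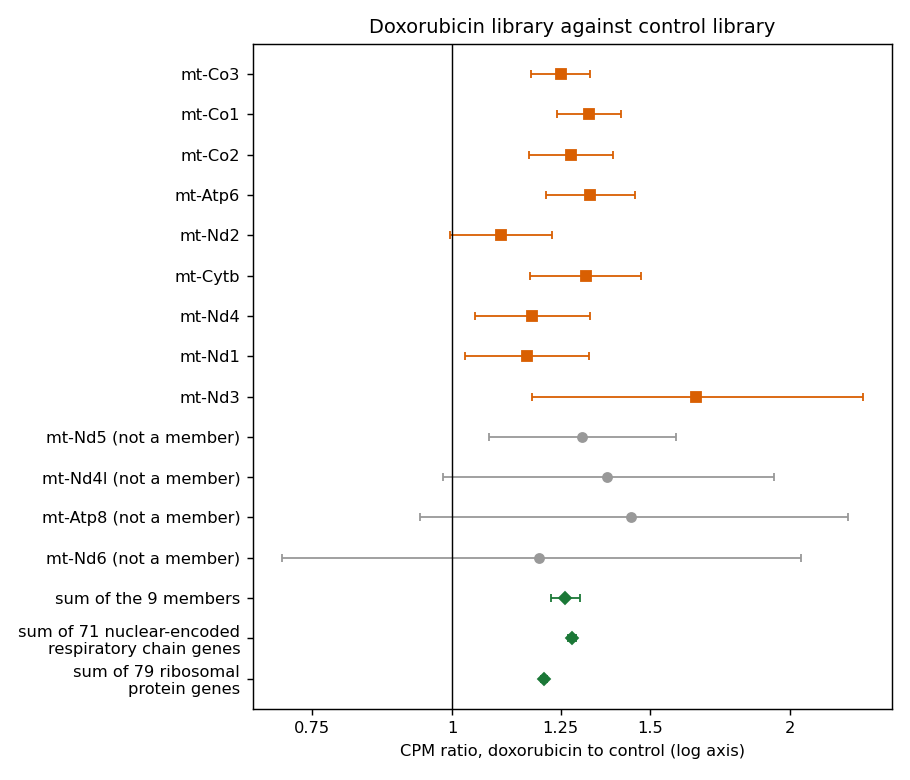
CPM ratio of the doxorubicin library to the control library (horizontal log axis) with exact 95% intervals, for each member, the other 4 mitochondrially encoded genes and 3 sums. All 9 members lie above 1, from 1.11 for mt-Nd2 to 1.65 for mt-Nd3, and the sum of 71 nuclear-encoded respiratory chain genes lies at 1.28.

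Nuclear genes for the same complexes differed in the same direction. In doxorubicin against control, 36 of 37 measured nuclear-encoded complex I subunits had a ratio over 1 and 24 were at least 25% higher, with a median log2 ratio of 0.35. Ndufa4, now placed in complex IV, had 235 CPM in doxorubicin and 149 CPM in control (ratio 1.57, 1.498 to 1.65), and Ndufb4 78.7 and 50.5 CPM (1.56, 1.44 to 1.69). Ndufa10 at 0.966 (0.911 to 1.02) and Ndufs1, which carries iron-sulfur clusters, at 1.08 (0.995 to 1.16) were the lowest. Of 9 complex III subunits 5 were at least 25% higher, led by Uqcrb (1.49) and Uqcr11 (1.48), with Cyc1 (1.01) and Uqcrc1 (1.02) lowest, and the median log2 ratio was 0.40. Of 10 complex IV subunits 8 were, led by Cox6c (1.46) and Cox7b (1.44), with Cox7c (1.16) and Cox8a (1.248) lowest, and the median was 0.44. Of 15 ATP synthase subunits 7 were, led by Atp5j (1.44) and Atp5e (1.43), with Atp5b (1.09) and Atp5d (1.105) lowest, and the median was 0.30. No gene of these 4 lists was at least 20% lower. Summed over their 71 genes, they had 7481 CPM in doxorubicin and 5853 CPM in control, a ratio of 1.28 (1.27 to 1.29) beside 1.26 for the members.

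The genes that make and process mitochondrial RNA were centred near no difference as lists. Of 16 measured transcription and replication factors 2 were at least 25% higher and 8 had a ratio over 1, with a median log2 ratio of 0.00. Polrmt, the mitochondrial RNA polymerase, was at 0.845 (0.65 to 1.1) and Tefm, its elongation factor, at 0.855 (0.627 to 1.17), while the polymerase gamma subunit Polg2 was at 1.46 (1.08 to 1.97) and the nuclease Mgme1 at 1.34 (1.002 to 1.80). Of 17 RNA processing and stability factors none passed either threshold, and 7 had a ratio over 1. Lrpprc, which stabilises mitochondrial messenger RNAs, had 72.1 CPM in doxorubicin and 86.7 CPM in control (0.832, 0.775 to 0.894). Fastk was at 0.851 (0.796 to 0.909), Slirp, the partner of Lrpprc, at 1.11 (1.0005 to 1.22) and Pnpt1 at 1.16 (1.104 to 1.22). Ribosomal protein genes, 79 genes chosen by symbol after these values were seen, summed to 10333 CPM in doxorubicin and 8557 CPM in control, a ratio of 1.21 (1.20 to 1.22). What these parallel differences share was not tested.

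Within classes of nuclei the members were higher with doxorubicin in most cases. Each library was clustered without mitochondrial genes, and clusters were named for their likeness to marker lists. 10 classes had at least 100 nuclei in every library. The CPM ratio of the summed members, doxorubicin to control, was over 1 in 8 of these 10 classes, with an interval above 1 in 7. Within a class between 37.7% and 59.4% of all genes had a ratio over 1. Thalamic or habenular neurons fell short only in doxorubicin plus ACY-1083 (53 nuclei), and their ratio was 1.002 (0.819 to 1.23). Choroid plexus epithelium and ependymal cells, also left out, were at 3.19 and 2.33, with most of their doxorubicin UMIs in a few nuclei.

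CA1 pyramidal neurons had the highest ratio, with 341 CPM in doxorubicin (516 UMIs in 782 nuclei) and 224 CPM in control (369 UMIs in 787 nuclei), a ratio of 1.52 (1.33 to 1.74). With doublets kept, which changed the clusters, their ratio was 1.27, and at Leiden resolution 0.5, a coarser clustering, 1.34 (1.20 to 1.49). Their clusters had no CA1 marker among the 10 leading genes in any library and were named by a weaker rule. In doxorubicin an unnamed cluster of 384 nuclei had the CA1 marker Fibcd1 among its leading genes. GABAergic neurons had 381 CPM in doxorubicin and 262 CPM in control (1.46, 1.29 to 1.65), and 7 alternatives left their ratio between 1.38 and 1.48. Oligodendrocytes had 595 and 420.3 CPM in these libraries (1.42, 1.249 to 1.61), but with doublets kept their ratio was 1.02 (0.888 to 1.16), with at least 600 genes per nucleus 1.13 (0.928 to 1.37) and after thinning each nucleus to 1000 UMIs 1.19 (0.885 to 1.61). Excitatory neurons of subiculum or cortex had 373 CPM in doxorubicin and 279 CPM in control (1.34, 1.22 to 1.48).

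Dentate gyrus granule neurons, the largest class, had 417 CPM in doxorubicin (1684 UMIs in 2654 nuclei) and 337 CPM in control (1265 UMIs in 2540 nuclei), a ratio of 1.24 (1.15 to 1.33), and all 9 members were higher there. Astrocytes were at 951 CPM in doxorubicin and 780.3 CPM in control (1.22, 1.11 to 1.34), a ratio of 1.07 (0.938 to 1.22) in nuclei with at least 600 genes. Oligodendrocyte precursor cells were at 495 and 380.1 CPM (1.30, 1.003 to 1.70), from 165 and 92 UMIs. The interval of that class included 1 with doublets kept (1.24, 0.973 to 1.58), with at least 600 genes (1.27, 0.893 to 1.84), at Leiden resolution 0.5 (1.26, 0.971 to 1.64) and after thinning (1.78, 0.945 to 3.60). CA2/CA3 pyramidal neurons had 261 CPM in doxorubicin and 244 CPM in control (1.07, 0.933 to 1.22), and after thinning their ratio was 1.37 (1.07 to 1.75).

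In microglia and fibroblast-like cells the ratio was not above 1. Microglia had 380.2 CPM in doxorubicin (205 UMIs) and 383 CPM in control (190 UMIs), a ratio of 0.993 (0.811 to 1.22). 2 control microglia held 41 of the 190 UMIs, and without nuclei of 10 or more member UMIs the ratio was 1.26 (1.01 to 1.56), while after thinning it was 0.560 (0.373 to 0.833). Fibroblast-like cells had 1217 CPM in doxorubicin and 1418 CPM in control (0.858, 0.730 to 1.01), and per nucleus 1.18 and 1.47 UMIs (0.808, 0.688 to 0.948). Among their nuclei with at least 600 genes the CPM ratio was 1.003 (0.819 to 1.23). The fibroblast-like cluster of the control library also had Flt1 and Slco1a4, markers of endothelium, among its 10 leading genes, and no separate endothelial cluster was found there. By mean fold of the marker lists it scored highest for endothelial cells. It was named for 3 fibroblast-like markers among its leading genes. In doxorubicin the separate endothelial cells had 2.85 member UMIs per nucleus (68 nuclei). The part of any endothelial nuclei in the lower ratio was not tested. The nuclear-encoded respiratory chain genes were higher in all 10 classes, from 1.17 in astrocytes to 1.52 in oligodendrocytes, and were 1.30 (1.24 to 1.38) in fibroblast-like cells and 1.27 (1.21 to 1.34) in microglia.

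**Figure D3:**
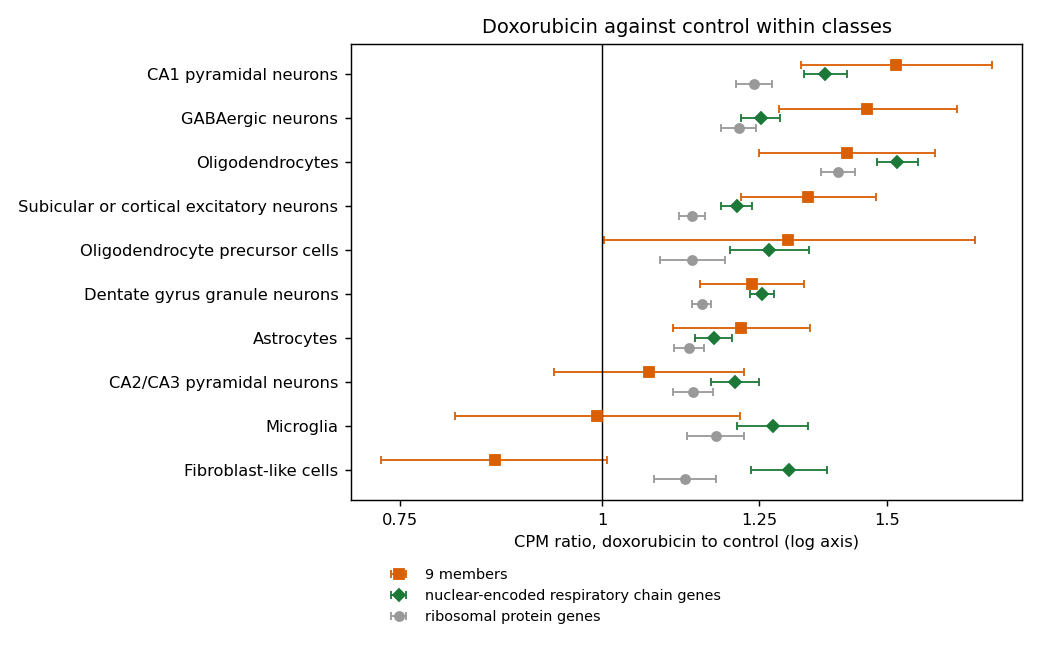
CPM ratio of doxorubicin to control (horizontal log axis) in 10 classes of nuclei with exact 95% intervals, for the summed members, the summed nuclear-encoded respiratory chain genes and the summed ribosomal protein genes. The members range from 0.858 in fibroblast-like cells to 1.52 in CA1 pyramidal neurons, while both nuclear gene sums lie above 1 in every class.

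The order of the classes depended on the unit. Among the 10 classes with at least 100 nuclei in every library, fibroblast-like cells came first in CPM in each. They had 400 CPM in doxorubicin plus ACY-1083, 1217 in doxorubicin and 1418 in control, where their cluster scored highest for endothelial markers. Astrocytes came second with 333, 951 and 780.3 CPM. Oligodendrocytes came next in each, with 298, 595 and 420.3 CPM. The neuron classes were low: in the same libraries the values were 93.8, 341 and 224 CPM for CA1 pyramidal neurons, and 87.3, 261 and 244 CPM for those of CA2/CA3. The highest of the 10 was 4.75 times the lowest in doxorubicin plus ACY-1083, 4.67 times in doxorubicin and 6.32 times in control. Some classes left out of this order were higher. Endothelial cells were at 824 CPM in doxorubicin plus ACY-1083 (85 nuclei) and 2519 CPM in doxorubicin (68 nuclei). Ependymal cells were at 347, 3617 and 1554 CPM in the 3 libraries, and choroid plexus epithelium at 310, 3073 and 965 CPM. Cajal-Retzius cells, pericytes and thalamic or habenular neurons were below fibroblast-like cells where found.

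Per nucleus the span was smaller and neurons were no longer lowest. The highest class was 2.02 times the lowest in doxorubicin plus ACY-1083, 2.25 times in doxorubicin and 4.16 times in control. CA2/CA3 pyramidal neurons, which had the highest median UMIs per nucleus of the compared classes, had 0.932 member UMIs per nucleus in doxorubicin plus ACY-1083, 0.840 in doxorubicin and 0.802 in control, and astrocytes had 0.748, 0.948 and 0.691. Fibroblast-like cells were at 0.804, 1.18 and 1.47, and oligodendrocytes at 0.461, 0.601 and 0.481. Oligodendrocyte precursor cells were lowest in doxorubicin (0.525) and control (0.352), and had 0.598 in doxorubicin plus ACY-1083. Between these ends most neighbours in the order had overlapping intervals. In doxorubicin the interval of a class was clear of that of the next class only below fibroblast-like cells, in doxorubicin plus ACY-1083 only above oligodendrocytes, and in control below fibroblast-like cells and below astrocytes.

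**Figure D4:**
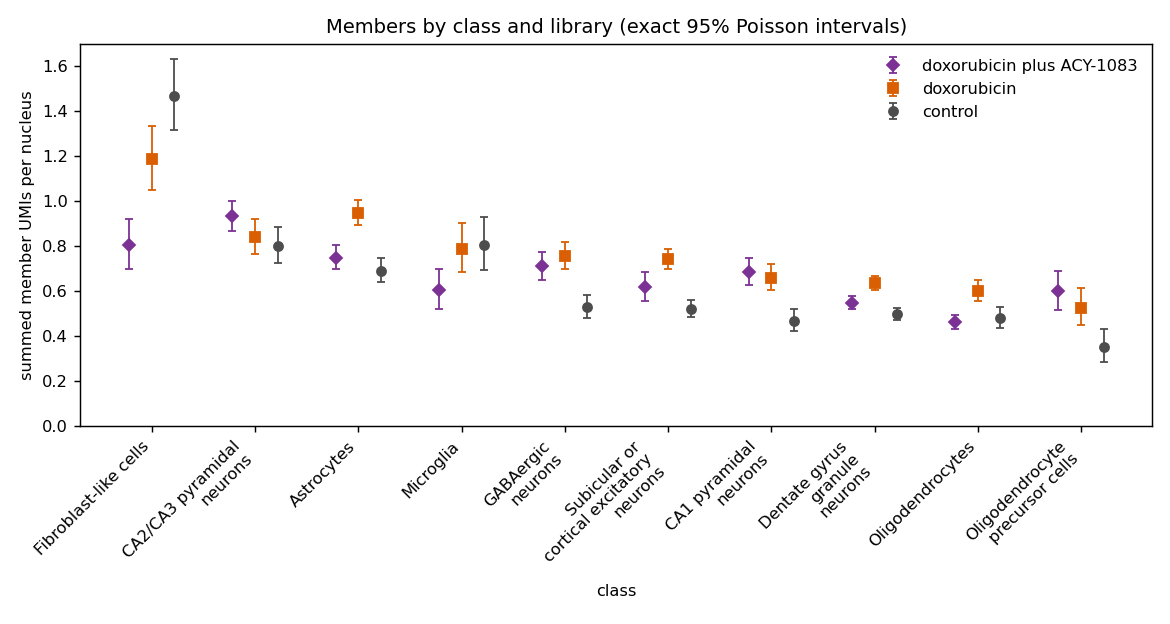
Summed member UMIs per nucleus (vertical axis) in 10 classes (horizontal axis) and 3 libraries, with exact 95% Poisson intervals. Values run from 0.352 in oligodendrocyte precursor cells of the control library to 1.47 in its fibroblast-like cells, and the doxorubicin points lie above control in 8 classes.

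The share of a member in a class mostly did not differ from its share in the whole library beyond counting error. That error was large in classes with few member UMIs, and each class is part of its library. Of the shares of 9 members in 10 classes and 3 libraries, the 95% interval left out the share in the whole library in 7 of 90 for doxorubicin plus ACY-1083, 8 of 90 for doxorubicin and 4 of 90 for control. mt-Co3 ranged over classes from 21.9% to 32.8% in doxorubicin plus ACY-1083, from 23.0% to 30.8% in doxorubicin and from 22.1% to 30.6% in control. mt-Co1 ranged from 18.5% to 23.5%, from 19.8% to 25.5% and from 17.0% to 24.5% in the same libraries. For mt-Co2 the ranges were 8.06% to 16.3%, 9.20% to 15.8% and 11.1% to 18.9%. The member with the most UMIs was mt-Co3 or mt-Co1 in each of the 10 classes of every library.

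Most nuclei held none or few member UMIs, and a few held many. At least 1 member UMI was found in 5037 of 11848 nuclei (42.5%) in doxorubicin plus ACY-1083, 5496 of 11648 (47.2%) in doxorubicin and 4034 of 10457 (38.6%) in control. Poisson counts of the same mean would give 49.4%, 58.0% and 49.7%. The variance was 2.46, 15.2 and 7.75 times the mean in these libraries, and the 99th percentile was 4, 6 and 5 UMIs. The 1% of nuclei with the most member UMIs held 12.2% of them in doxorubicin plus ACY-1083, 18.0% in doxorubicin and 20.8% in control. Nuclei with 10 or more numbered 24, 43 and 44. Without them the ratio of doxorubicin to control was 1.29 (1.253 to 1.34), so the difference was as large without these nuclei.

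Choroid plexus epithelium showed how far a few nuclei could carry a class. Its nuclei had 1.12 member UMIs each in doxorubicin plus ACY-1083 (121 nuclei), 4.35 in doxorubicin (140 nuclei) and 1.26 in control (99 nuclei). In doxorubicin 4 nuclei held 458 of the 609 UMIs, and the highest had 244 and 185. Without nuclei of 10 or more the values were 1.03 (0.859 to 1.23), 1.11 (0.940 to 1.30) and 1.0 (0.811 to 1.22), and all 3 intervals overlapped. In ependymal cells of the doxorubicin library 1 of 40 nuclei held 185 of 232 member UMIs.

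In nuclei set apart by high nuclear-encoded respiratory chain genes the difference ran the other way. In each library the unnamed cluster with the highest nuclear-encoded respiratory chain genes was picked, so the rule allowed 1 per library. Mitochondrial genes took no part in the clustering. Whether the picked clusters hold the same kind of nuclei in each library was not tested. The leading genes included Ttr, Cst3 and Ptgds in doxorubicin plus ACY-1083, Fth1, Chchd10 and Ncdn in doxorubicin, and Chchd2, Cox6b1 and Ncdn in control. At Leiden resolution 0.5 the control library had no such cluster, and its cluster with the highest respiratory chain genes was one of 158 nuclei named for ependymal cells. The clusters held 582 nuclei (4.91%) in doxorubicin plus ACY-1083, 438 (3.76%) in doxorubicin and 205 (1.96%) in control, with 7.79%, 9.92% and 14.4% of all member UMIs. The members were at 1672 CPM in doxorubicin and 3203 CPM in control, a ratio of 0.522 (0.478 to 0.570). Nuclei with 10 or more member UMIs held 40.0% of the clusters' member UMIs in doxorubicin (21 nuclei) and 75.7% in control (26 nuclei). Below that level the clusters had 1.44 member UMIs per nucleus in doxorubicin (1.33 to 1.56) and 1.40 in control (1.23 to 1.59), which did not differ beyond counting error. Their nuclear-encoded respiratory chain genes were at 13879 CPM in doxorubicin and 13762 CPM in control (1.01, 0.972 to 1.05). The clusters were picked by these genes, so this likeness is not an independent result. With these clusters left out, the ratio of the members over all other nuclei was 1.34 (1.30 to 1.39).

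The doxorubicin plus ACY-1083 library had fewer member UMIs per nucleus than the doxorubicin library. The sum was 0.680 per nucleus (0.666 to 0.695) in doxorubicin plus ACY-1083 and 0.868 (0.851 to 0.885) in doxorubicin, a ratio of 0.784 (0.761 to 0.807). All 9 members were lower per nucleus, 8 of them with an interval below 1, while 95% of the 16381 genes tested were higher. 6 members were at least 20% lower, against 0.476% of all genes and 3.88% of the 619 genes without introns. mt-Atp6 had the lowest ratio, 0.719 (0.658 to 0.786), followed by mt-Cytb at 0.744 (0.666 to 0.830) and mt-Nd4 at 0.747 (0.663 to 0.841). mt-Co1 was at 0.769 (0.722 to 0.820) and mt-Nd3 at 0.840 (0.625 to 1.13). In the same comparison 36 of 37 nuclear-encoded complex I subunits were higher per nucleus, with a median log2 ratio of 0.24, against -0.34 for the members and 0.04 for genes without introns. Without nuclei of 10 or more member UMIs the difference was smaller, with the sum of the members at 0.850 (0.825 to 0.877). mt-Atp6 was then at 0.801 (0.729 to 0.880) and mt-Cytb at 0.860 (0.764 to 0.967), so neither was at least 20% lower.

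The size of this difference depended on what the members were divided by. Genes without introns had 47.6 UMIs per nucleus in doxorubicin plus ACY-1083 and 40.6 in doxorubicin. Relative to them the members were at 1.43 per 100 UMIs in doxorubicin plus ACY-1083 and 2.14 in doxorubicin, a ratio of 0.669 (0.649 to 0.689). In CPM the ratio was 0.272 (0.264 to 0.280) and all 9 members were at least 20% lower, as were 48% of all genes and 99.5% of genes without introns. Malat1, a nuclear noncoding RNA, took 7.66% of UMIs in doxorubicin plus ACY-1083 and 23.3% in doxorubicin. The part of the treatment, of depth and of the counting in the difference cannot be told apart, since each belongs to 1 library.

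Against control, the doxorubicin plus ACY-1083 library had much the same level per nucleus when all nuclei were summed. The sum was 0.680 in doxorubicin plus ACY-1083 and 0.687 (0.671 to 0.703) in control, a ratio of 0.991 (0.960 to 1.02). 4 members were higher and 5 lower, against 94.4% of all genes higher, and mt-Nd2 alone had an interval clear of 1, at 0.872 (0.780 to 0.974). mt-Nd3, at 1.39 (0.981 to 1.98), was the 1 member at least 25% higher, against 82.3% of all genes, and none was at least 20% lower, against 0.564%. Relative to genes without introns the sum was at 0.833 (0.807 to 0.860), and in CPM at 0.343 (0.332 to 0.354), where all 9 members, 48.5% of all genes and 99.7% of genes without introns were at least 20% lower. With the cluster of high respiratory chain genes left out, the value per nucleus was 1.1 (1.06 to 1.14), above control.

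By class, doxorubicin plus ACY-1083 was below doxorubicin per nucleus in 7 of 10 classes, with the interval below 1 in 6. The ratio was 0.679 (0.564 to 0.816) in fibroblast-like cells, 0.765 (0.623 to 0.940) in microglia, 0.767 (0.690 to 0.853) in oligodendrocytes and 0.790 (0.719 to 0.867) in astrocytes. CA1 pyramidal neurons at 1.04 (0.918 to 1.17), CA2/CA3 pyramidal neurons at 1.11 (0.985 to 1.249) and oligodendrocyte precursor cells at 1.14 (0.918 to 1.41) were the 3 classes above 1. Between 75.1% and 99.4% of all genes in a class were higher per nucleus in this comparison. Against control, 7 of 10 classes were higher per nucleus, with the interval above 1 in 6 and below 1 in 2 of the 10. The ratios over 1 ran from 1.08 in astrocytes to 1.70 (1.31 to 2.20) in oligodendrocyte precursor cells. Fibroblast-like cells were at 0.548 (0.459 to 0.654), microglia at 0.749 (0.607 to 0.924) and oligodendrocytes at 0.958 (0.851 to 1.08). Between 69.3% and 99.6% of all genes in a class were higher per nucleus against control.

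Member UMIs per nucleus were compared between nuclei of different total UMIs. Nuclei with 500 to 1000 UMIs had 0.598 member UMIs in doxorubicin plus ACY-1083, 0.667 in doxorubicin and 0.515 in control. Those with 1000 to 2000 UMIs had 0.543, 0.762 and 0.628. In doxorubicin and control each deeper bin was higher than the one before it, while in doxorubicin plus ACY-1083 the second bin was lower than the first. Those with 2000 to 4000 UMIs had 0.606, 1.05 and 0.796, and those with 4000 to 8000 had 0.669, 1.33 and 1.69. Without nuclei of 10 or more member UMIs the values of the deepest of these bins were 0.652, 1.27 (1.17 to 1.37) and 1.09 (0.994 to 1.19). The first 2 bins of doxorubicin plus ACY-1083 were then at 0.444 and 0.515, so the second was no longer the lower. Over 8000 UMIs, 2217 nuclei of doxorubicin plus ACY-1083 had 0.975 member UMIs each, and 25 nuclei of doxorubicin had 17.3, or 2.70 without 2 nuclei of 10 or more. Doxorubicin was above control in every bin up to 8000 UMIs once nuclei of 10 or more were left out, but from 4000 to 8000 UMIs the intervals overlapped. Across nuclei the Spearman correlation of member UMIs with all other UMIs was 0.18 (11848 nuclei), 0.142 (11648) and 0.154 (10457), a description of points that share a library.

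**Figure D5:**
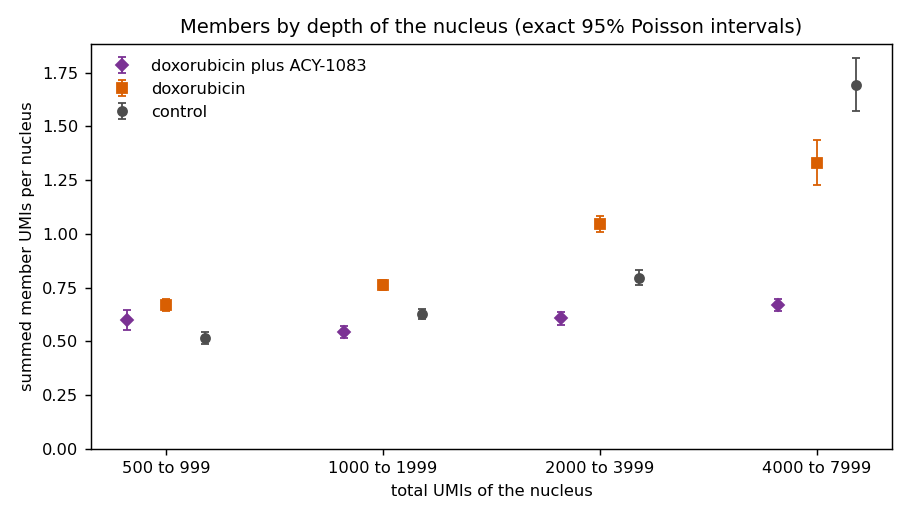
Summed member UMIs per nucleus (vertical axis) by the total UMIs of the nucleus (horizontal axis) in the 3 libraries, with exact 95% Poisson intervals. In nuclei of 2000 to 4000 UMIs the values are 0.606 in doxorubicin plus ACY-1083, 1.05 in doxorubicin and 0.796 in control.

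RNA outside nuclei can add UMIs to any droplet, so a gene of another cell type was set beside the members. Ttr, the transthyretin gene of choroid plexus, had a UMI in 96.9% of dentate gyrus granule neurons in doxorubicin plus ACY-1083, 97.9% in doxorubicin and 85.6% in control. The members had one in 39.3%, 43.1% and 35.9% of the same nuclei, at median depths of 4474, 1428 and 1360 UMIs. The share of the member UMIs in these nuclei that came from such RNA was not tested. Ttr was also higher in doxorubicin than in control, with 4.53 and 2.07 UMIs per granule neuron, and its part in the difference of the members was not tested.

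The genes most like the members across classes were ranked by Pearson correlation of log2(CPM + 1) over the 10 classes, taking the lowest of the 3 libraries, among 3536 genes with at least 1000 UMIs in each. The first was Atp5d, a subunit of the ATP synthase, at 0.942, followed by Rpl27a at 0.933 and Rps3a1 at 0.928, both ribosomal proteins. Laptm4a, a lysosomal membrane protein, was at 0.918. The classes share libraries and differ in depth, so these values describe likeness only.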

How the data were processed

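Single nuclei of 3 hippocampus libraries were analysed. The authors deposited raw UMI counts per gene and barcode. The matrix of doxorubicin plus ACY-1083 was written by Cell Ranger 5.0.0 and those of doxorubicin and control by version 4.0.0, per the file headers. Version 6.0.0 and the build mm10 stand in the submitters' processing notes. Barcodes with at least 300 detected genes were kept, and nuclei with a Scrublet score over 0.25 were removed, a threshold set after its automatic one called almost none. Each library was clustered with scanpy 1.11.5 and leidenalg 0.10.2 (Python 3.11.15) without mitochondrial genes. Clusters were named from marker lists. Some fell short of the first rule and were named by a weaker one chosen after the data were seen, which took 1669 nuclei (14.1%) in doxorubicin plus ACY-1083, 1327 (11.4%) in doxorubicin and 1541 (14.7%) in control. The CA1 and CA2/CA3 clusters of every library were among those named by the weaker rule. Unnamed nuclei were 2273 (19.2%), 1804 (15.5%) and 1414 (13.5%), so differences from the study's own classes may come from these rebuilt names. The members were taken by symbol, and members and gene lists were chosen with earlier results of these data known. Genes needed 100 UMIs in the libraries compared together. Named genes of a list were its lowest and highest 2 by ratio. Poisson, Clopper-Pearson and conditional ratio intervals came from scipy 1.17.1, and TMM factors from edgeR 4.0.16 in R 4.3.3. The ratio intervals were tested on simulated Poisson counts only, which lack the extra spread of member UMIs between nuclei. Of the 5 genes most like the members across classes, 1 is not reported here.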

Additional observations from a re-analysis of the deposited data

Results flagged for a closer look

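In the unnamed clusters with high nuclear-encoded respiratory chain genes, the summed members were lower in doxorubicin than in control, with a CPM ratio of 0.522, while the ratio over all nuclei was 1.26. It stood out because the groups' difference ran opposite to that of the other nuclei. The difference from the rest was not tested, the clusters' leading genes differed between libraries, and at Leiden resolution 0.5 control had no such cluster. Nuclei with 10 or more member UMIs held 40.0% of the cluster's member UMIs in doxorubicin and 75.7% in control.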

How the results depend on the processing

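Each group is 1 library, so the libraries' spread is unknown, and class names were rebuilt. No paired analysis was possible because the groups compared share fewer than 2 replicate numbers. All values here are log2 ratios of the summed members unless stated, and the cause of each shift was not tested. The counts of members higher, and of classes higher, with doxorubicin stayed within 1.5 times under every alternative run. Doxorubicin against control (0.34) was 0.38 with TMM scaling, 0.28 thinned to 1000 UMIs, 0.39 without the top 1% of nuclei, 0.43 without the respiratory chain cluster and 0.44 per nucleus without it. Thinning left out 1079 nuclei in doxorubicin plus ACY-1083, 3264 in doxorubicin and 2887 in control. Doxorubicin plus ACY-1083 against doxorubicin (-1.88) was -0.35 per nucleus, -0.58 relative to genes without introns, -2.15 without Malat1 and mitochondrial genes in the total, -1.56 with TMM, -1.83 with at least 600 genes, -1.30 thinned, -1.78 without the top 1%, -1.77 without nuclei of 10 or more member UMIs and -0.30 per nucleus without the cluster. Doxorubicin plus ACY-1083 against control (-1.55) was -0.013 per nucleus, -0.26 relative to genes without introns, -1.78 without Malat1 and mitochondrial genes, -1.18 with TMM, -1.02 thinned, -1.39 without the top 1%, -1.45 without the cluster, -1.39 without nuclei of 10 or more member UMIs, and reversed to 0.14 per nucleus without the cluster. Of the 10 compared classes, the highest over the lowest was 2.02 in doxorubicin plus ACY-1083, 2.25 in doxorubicin and 4.16 in control per nucleus. In CPM it was 4.75, 4.67 and 6.32. The added alternatives, which leave out the cluster or nuclei of 10 or more member UMIs, were chosen after seeing the data.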
